A study of Mus musculus with 4 samples.

Results

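The aryl hydrocarbon receptor axis was followed through 7 genes: the receptor Ahr, its partner Arnt, its repressor Ahrr and the target genes Cyp1a1, Cyp1b1, Tiparp and Nqo1. They were chosen by gene name among the non-control probes, where the 7 genes held 11 probes of the 41174 on the array and stood among 27734 gene names. The samples were cells freshly isolated from the small bowel of mice, with 2 arrays from WT mice and 2 from IKKb(EE)IEC littermates, 1 array per sample. In IKKb(EE)IEC mice the intestinal epithelium makes IKKb(EE), an always-active version of IKKb, the kinase that activates NF-kB, and their WT littermates lack it. The sources used here do not state age, sex, the promoter behind the active kinase or how many mice made up a sample. The design text calls the 2 samples of a genotype biological replicates.

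The aryl hydrocarbon receptor (AhR) is a transcription factor that waits in the cytoplasm in a complex with the chaperone HSP90. Ligands from the diet, from tryptophan breakdown and from gut microbes, as well as dioxins, release it into the nucleus, where it pairs with ARNT and binds DNA elements with the core GCGTG. In the intestine the receptor is known for the induction of detoxifying enzymes such as CYP1A1 in epithelial cells and for the upkeep of lymphocytes in the epithelium. AHRR competes for ARNT and TIPARP modifies the receptor with ADP-ribose, so that both limit the response, while CYP1A1 breaks down the ligands.

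The targets are set side by side here because Cyp1a1 differed between genotypes while Tiparp and Nqo1 did not pass the test and Ahrr was mostly below background. The windows reach from 250 bases before to 50 bases after the start site, come from RefSeq (GRCm38.p6) and run 5′ to 3′ along the gene. Capitals mark the core GCGTG, or CACGC where it lies on the other strand. RefSeq windows were found for 6 of the 7 genes, all but Ahr.
Cyp1a1 promoter window: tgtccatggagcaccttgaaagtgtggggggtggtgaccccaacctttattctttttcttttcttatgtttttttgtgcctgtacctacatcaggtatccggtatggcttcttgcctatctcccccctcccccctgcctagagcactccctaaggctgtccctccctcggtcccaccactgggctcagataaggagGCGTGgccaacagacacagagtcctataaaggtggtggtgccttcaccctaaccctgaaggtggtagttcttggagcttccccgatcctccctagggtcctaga
Tiparp promoter window: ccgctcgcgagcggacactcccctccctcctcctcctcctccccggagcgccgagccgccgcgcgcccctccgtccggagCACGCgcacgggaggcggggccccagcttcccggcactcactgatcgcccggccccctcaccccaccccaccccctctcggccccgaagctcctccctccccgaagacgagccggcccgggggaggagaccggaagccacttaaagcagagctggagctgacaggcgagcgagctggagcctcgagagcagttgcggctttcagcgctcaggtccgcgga
Nqo1 promoter window: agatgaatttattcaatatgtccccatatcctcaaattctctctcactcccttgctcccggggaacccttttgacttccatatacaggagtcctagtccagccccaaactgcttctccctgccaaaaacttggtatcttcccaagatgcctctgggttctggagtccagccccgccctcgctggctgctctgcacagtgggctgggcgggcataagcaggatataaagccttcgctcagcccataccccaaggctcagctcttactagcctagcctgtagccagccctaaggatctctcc
Ahrr promoter window: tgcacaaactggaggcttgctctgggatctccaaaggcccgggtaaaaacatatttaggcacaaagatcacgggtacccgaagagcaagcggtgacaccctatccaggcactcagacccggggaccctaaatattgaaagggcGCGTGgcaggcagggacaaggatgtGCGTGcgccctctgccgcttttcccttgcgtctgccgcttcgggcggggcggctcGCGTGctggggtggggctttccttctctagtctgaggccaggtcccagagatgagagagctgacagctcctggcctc
The windows are chr9:57697363-57697662 on the plus strand, chr3:65528197-65528496 on the plus strand, chr8:107403156-107403455 on the minus strand and chr13:74292282-74292581 on the minus strand. The Cyp1a1 window held 1 core, whose first base lay at -54 from the start site. The Tiparp window also held 1, at -170 on the other strand, and the Nqo1 window held 0. Ahrr, the repressor, had 3 cores, at -107, -82 and -27, and the last was part of the longer element TNGCGTG, which begins at -29. Windows not printed held 1 core each, at -29 for Arnt and at -76 for Cyp1b1. Over all 32851 promoter windows of this length, 32.4% held GCGTG and 5.07% held TNGCGTG on either strand, so a core is common. A match is not a binding site, and more distant elements lie outside these windows.

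Cyp1a1 rose in IKKb(EE)IEC from a level well above background in WT, Ahr rose from a WT level at or near background, and no member fell. Ahr was well above background on 1 of 2 WT arrays and on both IKKb(EE)IEC arrays, so it reached the test through the genotype where it is high, and its call is lost without the filter on dim probes (adjusted p by limma = 0.0606). Of the 7 genes, 5 had a probe that passed as well above background on 2 or more of the 4 arrays and were tested. Of these, 2 rose, 0 fell (0 also at an unadjusted p below 0.05 in limma) and Arnt, Tiparp and Nqo1 did not pass. As background, of the 12437 genes that entered the test 15.2% passed it, and 8.02% passed as higher. Both IKKb(EE)IEC arrays lay above both WT arrays for 28.3% of these genes and below them for 40.8%. Of the 5 members 2 lay above and 0 below, and 5 genes are too few to be told apart from these shares. Ahrr and Cyp1b1 did not reach the level required for the test. The test was limma on log2 signal, after each array was shifted by its 75th percentile, with Benjamini-Hochberg adjustment over all genes and a threshold of 0.05. Each change is the IKKb(EE)IEC mean less the WT mean on the log2 scale, given with the fit's standard error (SE) and n = 2 arrays per genotype.

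**Figure D1:**
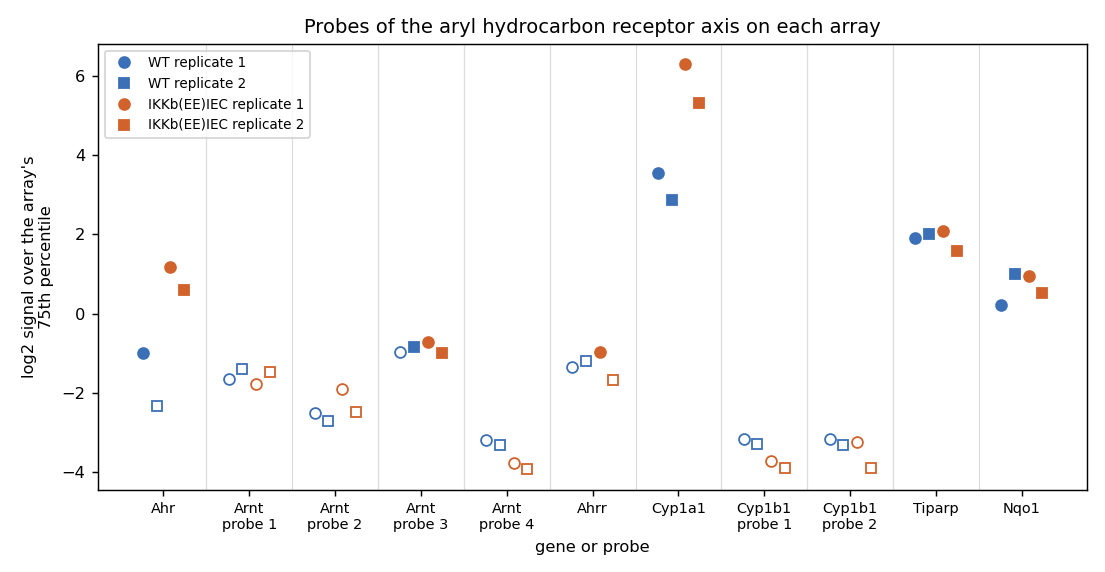
Normalized log2 signal of each probe of the 7 genes (y axis, log2 of the signal over the array's 75th percentile) on the 4 arrays. Colour gives the genotype, shape the replicate, and open symbols are not well above background. The IKKb(EE)IEC arrays lie above both WT arrays for Ahr (1.18 and 0.60 against -1.01 and -2.33) and Cyp1a1 (6.29 and 5.30 against 3.55 and 2.85), while the genotypes overlap for Tiparp and Nqo1.

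The receptor gene Ahr had 1 probe, on chromosome 12 (36083324 to 36083383, mm8). In WT it passed as well above background for replicate 1 alone, and in IKKb(EE)IEC for both. The WT arrays gave a normalized log2 signal of -1.01 and -2.33, against 1.18 and 0.60 from IKKb(EE)IEC. Both IKKb(EE)IEC arrays thus lay above both WT arrays, and the WT arrays were further apart than the IKKb(EE)IEC arrays. Ahr rose by 2.56 ± 0.47 (SE) on the log2 scale (adjusted p by limma = 0.0285), a size that rests on a WT level at or near background and is therefore not given as a fold.

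Ahr was the one member printed more than once on each array, as 10 spots, which show how well a single array measured it. These spots are technical repeats of 1 RNA sample and add no replicate. Their processed signal ran from 16.9 to 42.5 on the array of WT replicate 1 and from 6.37 to 23.7 on that of WT replicate 2. On the IKKb(EE)IEC arrays it ran from 193.5 to 245.9 and from 146.4 to 192.2. No WT spot reached the lowest IKKb(EE)IEC spot. The 10 spots had a standard deviation of 0.39 and 0.58 log2 units for WT, against 0.10 and 0.12 for IKKb(EE)IEC. On WT replicate 1, 7 of the 10 spots were well above background, against 0 on WT replicate 2 and all 10 on each IKKb(EE)IEC array. The WT level of Ahr thus lay at or near background.

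**Figure D2:**
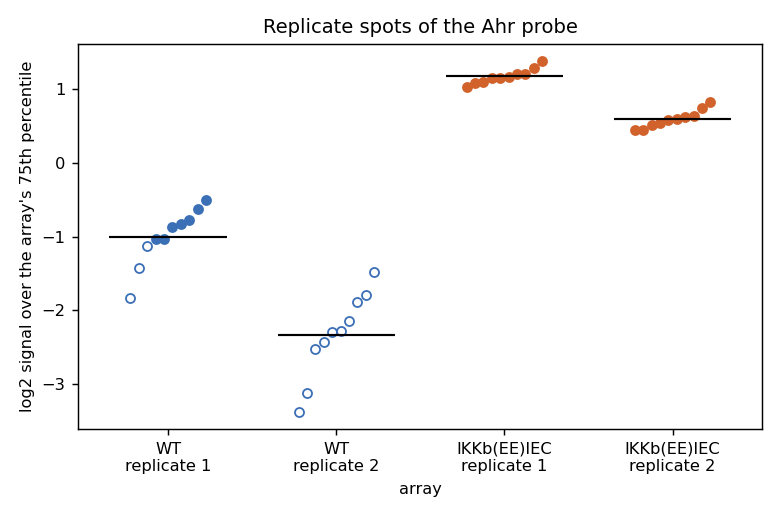
The 10 spots of the Ahr probe on each array (y axis, log2 of the spot signal over the array's 75th percentile). Filled circles are well above background, open circles are not, and black lines are the array means. No spot on WT replicate 2 was well above background, and every spot of the IKKb(EE)IEC arrays lies above all WT spots.

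The size of the rise in Ahr depended on how the background was treated. In the authors' value table, whose values follow the spot means before background subtraction, Ahr had intensities of 151.6 and 105.8 in WT mice against 297.5 and 226.7 in IKKb(EE)IEC mice, with no overlap. The change there was 1.04 (adjusted p by limma = 0.0406), against 2.56 from the processed signal. With the 2 planned normexp background corrections it was 0.85 and 0.85 and did not pass (adjusted p = 1.00 and 1.00), as no gene did in those fits. It was 1.11 (adjusted p = 0.0191) with a normexp correction without the spots below their local background, chosen after seeing the data. The call itself needed both IKKb(EE)IEC arrays. Ahr changed by 2.27 (adjusted p = 0.134) without IKKb(EE)IEC replicate 1 and by 2.85 (adjusted p = 0.0727) without replicate 2, and by 3.22 and 1.89 without WT replicate 1 and 2.

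Arnt, whose product is the dimer partner of AhR and also of the hypoxia factors, had 4 probes, of which 1 reached the test (chromosome 3, 95576047 to 95576473, mm8). Its values were -0.98 and -0.84 in WT mice against -0.71 and -0.99 in IKKb(EE)IEC mice, so that the genotypes overlapped. The change was 0.06 ± 0.19 (adjusted p by limma = 0.839), with a 95% interval of -0.41 to 0.52. The other 3 Arnt probes were not well above background on any array, and 1 of them carried a substituted signal on all 4. The tested probe was itself well above background on only 1 of the 2 WT arrays, and on both IKKb(EE)IEC arrays. Its interval corresponds to 0.75-fold to 1.43-fold, but with a signal this low it sets no firm limit on a change of Arnt.

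Ahrr, the receptor's repressor and itself a target, had a single probe (chromosome 13, 74677120 to 74677166, mm8), which was well above background on the array of IKKb(EE)IEC replicate 1 alone. The normalized log2 values were -1.35 and -1.19 in WT mice against -0.98 and -1.67 in IKKb(EE)IEC mice. The genotypes overlapped, and the authors' intensities of 126.9 and 126.6 against 131.2 and 122.0 did so too. Without a filter on dim probes its change was -0.06 (adjusted p by limma = 0.889).

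Cyp1a1, the P450 enzyme that is the classical readout of AhR activity, rose in IKKb(EE)IEC from a level well above background. Its probe lies on chromosome 9 (57501865 to 57501924, mm8) and was well above background on all 4 arrays. The processed signal was 704 and 478 for WT, against 7392 and 4258 for IKKb(EE)IEC. After normalization the log2 values were 3.55 and 2.85 in WT mice against 6.29 and 5.30 in IKKb(EE)IEC mice. Both IKKb(EE)IEC arrays were far above both WT arrays, although the arrays of each genotype were 0.69 and 0.98 log2 units apart. Cyp1a1 rose by 2.59 ± 0.40, or 6.04-fold with a 95% interval of 3.04 to 12.0 (adjusted p by limma = 0.0183), at rank 112 from the highest change.

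The size of the change in Cyp1a1 lay between 2.35 and 2.77 over the background treatments, but its call did not hold in all of them. With the 2 planned normexp corrections, in which no gene passed, it was 2.36 and 2.35 (adjusted p by limma = 1.00 and 1.00), and with the added one 2.77 (adjusted p = 0.00924). The authors' intensities were 1005 and 615 in WT mice against 6573 and 3328 in IKKb(EE)IEC mice, which gave a change of 2.57 (adjusted p by limma = 0.0201). Without IKKb(EE)IEC replicate 1 the change was 2.10 and missed the threshold (adjusted p = 0.0669). Leaving out the other arrays one at a time gave 2.25 to 3.09, past the threshold each time.

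**Figure D3:**
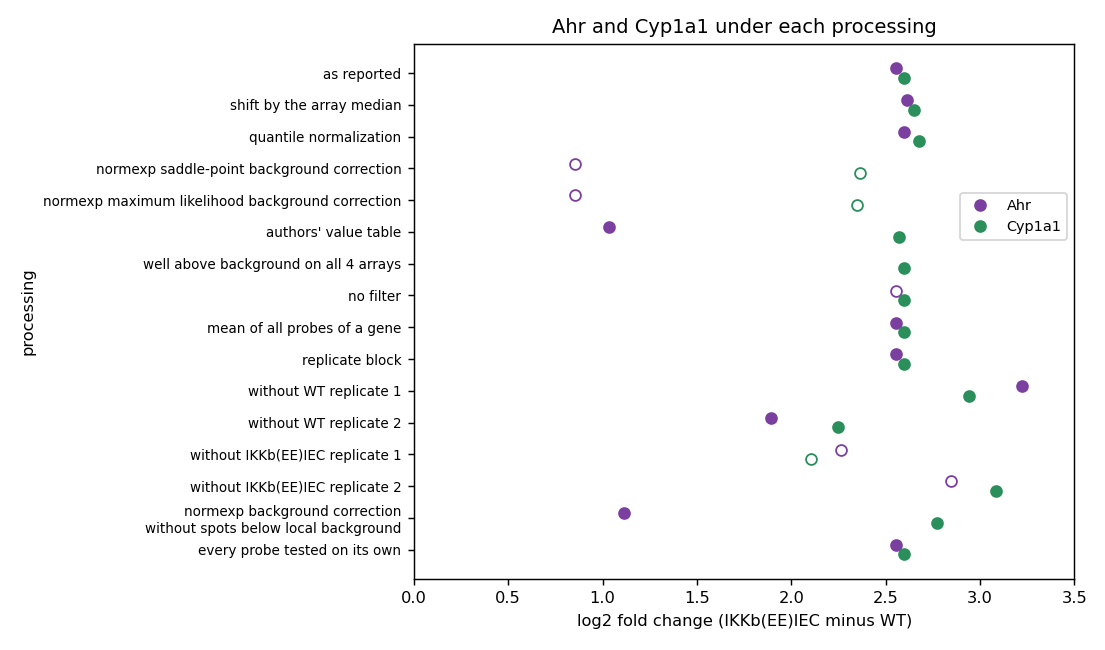
Log2 fold change of Ahr and Cyp1a1 (x axis, IKKb(EE)IEC minus WT) under each processing (y axis), with filled points past the adjusted threshold of 0.05 and open points not past it. The Cyp1a1 values lie between 2.10 and 3.09, while those of Ahr lie between 0.85 and 3.22 and are lowest where the background is treated differently. Ahr has no point where a probe had to be well above background on all 4 arrays.

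Cyp1b1, a related P450 that stromal cells and macrophages also make, had 2 probes on chromosome 17 (79615533 to 79615592 and 79609904 to 79609963, mm8). Neither was well above background on any array, and the signal was the substituted minimum on 4 and on 3 of the 4 arrays. The authors' intensities of the first probe were 93.6 and 87.9 in WT mice against 85.8 and 92.7 in IKKb(EE)IEC mice. No level of Cyp1b1 could be read from these arrays in either genotype. Without a filter its change was -0.33 (adjusted p by limma = 0.364), while the median of all genes fitted that way was -0.45.

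Tiparp, the ADP-ribosyltransferase that marks AhR for degradation, was well above background on all 4 arrays (chromosome 3, 65642756 to 65642815, mm8). Its values were 1.90 and 2.01 in WT mice against 2.09 and 1.57 in IKKb(EE)IEC mice. The genotypes overlapped, with the highest and the lowest value both in IKKb(EE)IEC. The change was -0.13 ± 0.23 (adjusted p by limma = 0.699), with a 95% interval of -0.70 to 0.44, or 0.62-fold to 1.36-fold.

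Nqo1, a quinone reductase that AhR and the oxidative stress factor NRF2 both induce, was also well above background throughout (chromosome 8, 110277669 to 110277728, mm8). Its values were 0.22 and 1.00 in WT mice against 0.95 and 0.51 in IKKb(EE)IEC mice. Both IKKb(EE)IEC values fell between the WT values. The change was 0.13 ± 0.31 (adjusted p by limma = 0.784), with a 95% interval of -0.66 to 0.91, or 0.63-fold to 1.88-fold.

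The changes of Cyp1a1 and of Tiparp and Nqo1 were compared within arrays. The change of Cyp1a1 exceeded that of Tiparp by 2.72 and that of Nqo1 by 2.47 log2 units. In an exact two-sided permutation test over the 4 arrays (n = 2 per genotype) each of the 6 comparisons of Ahr or Cyp1a1 with Arnt, Tiparp or Nqo1 gave p = 0.333, the smallest value this design allows, so none could pass. The separate 95% interval of Cyp1a1 (1.60 to 3.59) lay above those of Tiparp and Nqo1. Cyp1a1 was set beside them because it was called in these data, so this is a description and no test of a difference.

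Other genes tied to AhR signalling were read from 6 lists, which held 55 genes tested. Of these, 8 rose and 2 fell, so that 10 of 55 passed against 15.2% of all genes (8.02% higher and 7.2% lower), a share near the background. Among the receptor's partners and cofactors 2 of 10 rose and 0 fell (0 also at an unadjusted p below 0.05 in limma), with a median of 0.17 against -0.12 over all genes. Ncoa3, a coactivator that works with several nuclear receptors, rose by 1.61 ± 0.28 (adjusted p by limma = 0.0259), from -0.47 and -1.18 in WT to 0.94 and 0.63 in IKKb(EE)IEC. Hsp90aa1, the inducible form of the chaperone that holds the receptor, rose by 0.72 ± 0.17 (adjusted p = 0.0464). The p23 gene Ptges3, which encodes a cochaperone of HSP90, had a change of -0.09 and did not pass the threshold.

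Further genes of the classical AhR battery did not follow Cyp1a1 past the threshold. Of the 12 listed, 6 were measured, and 0 rose and 0 fell, with 0 also at an unadjusted p below 0.05 in limma (median -0.16). As 15.2% of all genes passed, 0 of 6 is near the background and says little about this list. The smallest p values belonged to Ugt1a6b, a glucuronidation enzyme, at -0.43 ± 0.20 (adjusted p by limma = 0.166), and to Cyp2s1, a dioxin-inducible P450 of the gut, at 0.39 ± 0.22 (adjusted p = 0.241). Cyp2s1 had values of 4.14 and 3.63 in WT mice against 4.26 and 4.29 in IKKb(EE)IEC mice. The glutathione transferase genes Gsta1 and Gsta2 had changes of -0.20 and -0.15. The genes Ugt1a6b, Gsta1 and Gsta2 have close copies, so their probes may share signal with them. Cyp1a2, Aldh3a1, Il22, Serpinb2 and Slc7a5 did not reach the level required for the test.

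Enzymes of tryptophan breakdown, which supply AhR ligands such as kynurenine, showed 1 fall among 8 and 0 rises (0 also at an unadjusted p below 0.05 in limma, with 4 lower). Over all 12437 genes tested 8.02% rose and 7.2% fell, so 1 call among 8 is near the background. At an unadjusted p below 0.05 in limma, 2688 of the 12437 were lower. Ido1, which opens the tryptophan ring, fell by 1.08 ± 0.19 (adjusted p by limma = 0.0265), from 3.14 and 3.47 in WT to 2.27 and 2.17 in IKKb(EE)IEC. The list had a median of -0.48 against -0.12 over all genes. In the bHLH-PAS family, to which AhR and ARNT belong, 0 of 6 rose and 0 fell (0 and 2 at an unadjusted p below 0.05 in limma), and the smallest p values were those of the clock gene Per2 (-0.59 ± 0.17, adjusted p = 0.0658) and of Hif3a (-0.59 ± 0.22, adjusted p = 0.112).

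Of 14 measured genes of the NRF2 response, which share the regulation of Nqo1, 2 rose and 1 fell, with a median of 0.07. These 3 of 14 are near the 15.2% of all genes that passed. Cbr3, a carbonyl reductase, rose by 2.15 ± 0.49 (adjusted p by limma = 0.0441), from 0.73 and -0.21 in WT to 3.01 and 1.81 in IKKb(EE)IEC. Keap1, which keeps NRF2 inactive, rose by 1.16 ± 0.17 (adjusted p = 0.0159). Gclm, a subunit of the enzyme that starts glutathione synthesis, fell by 1.33 ± 0.19 (adjusted p = 0.0161). The gene of NRF2 itself, Nfe2l2, had a change of 0.02 ± 0.25.

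Tiparp belongs to the PARP family, and 4 of its 12 other measured members rose while 0 fell (1 at an unadjusted p below 0.05 in limma), with a median of 0.28, against 8.02% higher over all genes. The number that rose was 2 with the mean of all probes of a gene and 1 without a filter. Parp14 and Zc3hav1, both known as interferon-responsive, rose by 1.23 ± 0.19 and 0.98 ± 0.17 (adjusted p by limma = 0.0193 and 0.0259), and Parp8 by 1.11 ± 0.22 (adjusted p = 0.0336). The calls in these 6 lists depended on the arrays used. Without IKKb(EE)IEC replicate 1, 0 list genes passed in limma, and without replicate 2 Cbr3 alone did. Leaving out either WT array raised the number called. Over all genes the number called fell and rose in the same fits, so these shifts are not particular to the lists.

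**Figure D4:**
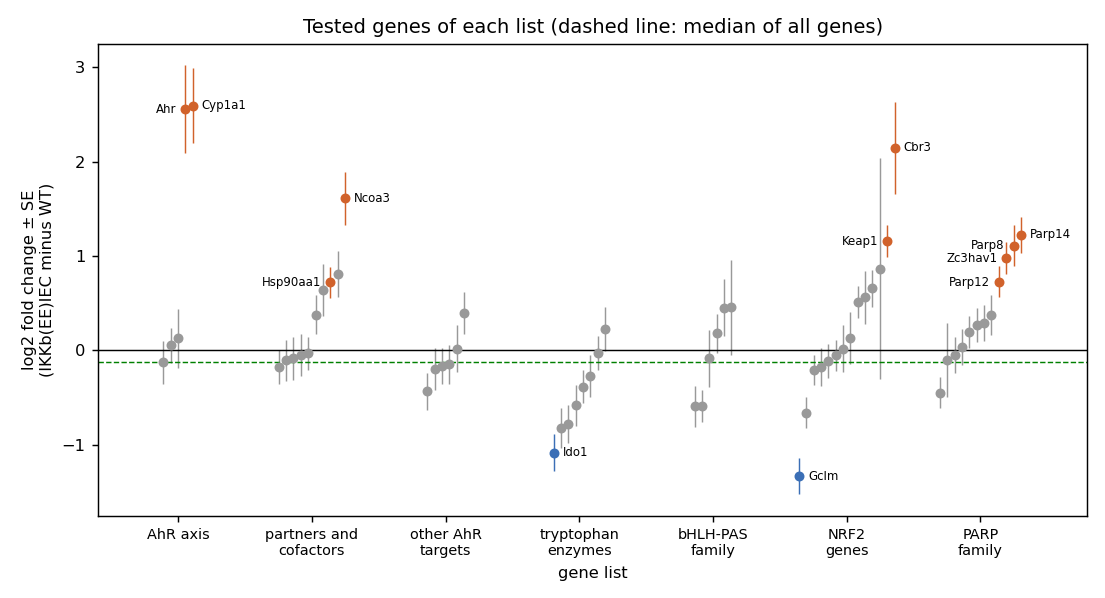
Log2 fold change with SE (y axis, IKKb(EE)IEC minus WT) of every tested gene of the AhR axis and of the 6 further lists (x axis). Orange points rose, blue points fell and grey points did not pass, and the dashed line is the median of all genes, -0.12. Cyp1a1 stands at 2.59, above every tested gene of the 6 lists, and Ahr at 2.56, a value that depends on the background treatment.

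Set beside the other cytochrome P450 genes, Cyp1a1 was 1 of 2 that rose. Of 45 P450 genes tested, 2 rose and 21 fell, against 8.02% higher and 7.2% lower over all genes, with a family median of -0.86. The other rise was that of Cyp51, a cholesterol synthesis enzyme, at 1.06. Cyp3a11, a main drug-metabolising P450, fell by 1.66 and the fatty acid hydroxylase gene Cyp4a10 by 0.68. Cyp3a11 had values of 3.01 and 4.08 in WT mice against 1.98 and 1.78 in IKKb(EE)IEC mice. WT replicate 2, its highest array, was also the only one with liver markers well above background, and their part in the falls was not tested. The Cyp2d, Cyp2j and Cyp3a genes include close copies whose probes may share signal. The number that fell was far smaller without either IKKb(EE)IEC array and larger without either WT array, as it was over all genes. When dim probes were not removed it was 5 of 78, against 342 of 27727 genes. These P450 genes and those named singly here were chosen after their values were seen.

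**Figure D5:**
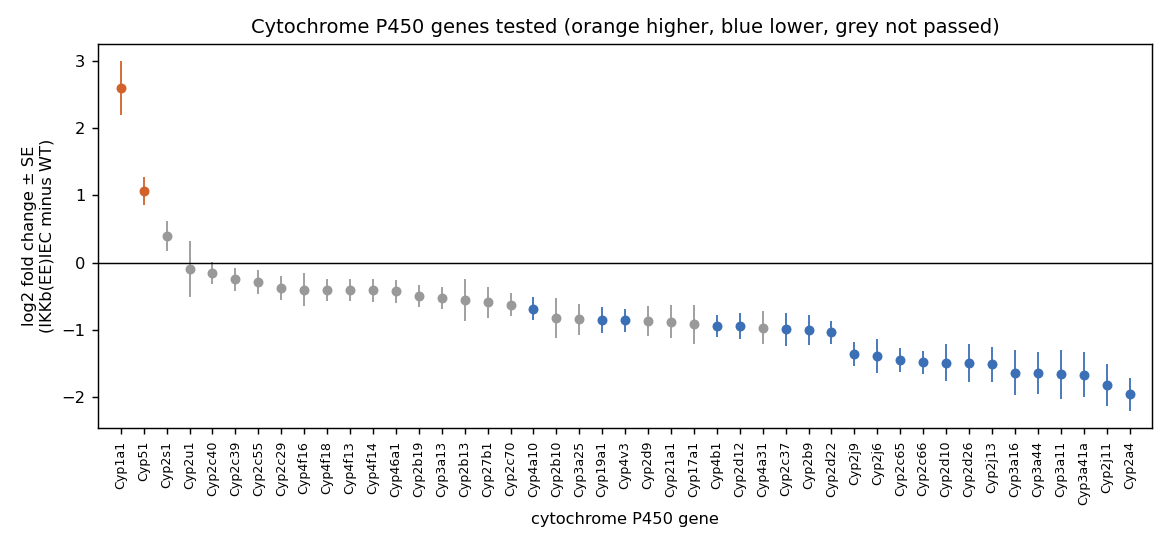
Log2 fold change with SE (y axis, IKKb(EE)IEC minus WT) of the 45 cytochrome P450 genes tested, ordered by change (x axis). Cyp1a1 stands at 2.59 and Cyp51 at 1.06, and the other genes lie at or below 0.39.

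Genes with the most similar pattern over the 4 arrays were found by the smallest distance between values centred on each gene's mean, among 10363 genes with a symbol. For Ahr, whose WT values lay at or near background, these were Htra1, Kctd12 and Atrn, at distances of 0.17, 0.31 and 0.37. For Cyp1a1 they were Arl4c, Celsr1 and Car8, at distances of 0.30, 0.37 and 0.40. With 4 arrays in 2 groups, this likeness mostly says that a gene rose by a similar amount.

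The levels are those of the isolated cells as a whole, so more cells of a type and more RNA per cell cannot be told apart. Epithelial markers were well above background for 8 of 8 genes on every array, and none passed in either direction (0 by limma, with 2 higher and 0 lower at an unadjusted p below 0.05). Markers of macrophages and dendritic cells, which also express Ahr, were called higher for 6 of 10 measured genes, against 8.02% of all genes, and 0 fell in limma (0 also at an unadjusted p below 0.05). All 6 reached the test through the IKKb(EE)IEC arrays, since 4 were well above background on neither WT array and 2 on 1, so this count is no support for a rise. The number called was 3 without IKKb(EE)IEC replicate 1, 4 without replicate 2 and 9 without WT replicate 2, and 0 of the 3 markers well above background on all 4 arrays. Their summed signal over 13 markers, in multiples of the array's 75th percentile, was 9.45 and 11.1 in WT mice against 32.3 and 25.6 in IKKb(EE)IEC mice. Adgre1, a macrophage surface receptor gene, was not well above background in WT (0.24 and 0.24) and stood at 1.80 and 1.30 in IKKb(EE)IEC. C1qb, a complement gene, did not pass (5.15 and 4.81 for WT, then 4.64 and 4.34), and Cx3cr1 and Mrc1 were not well above background on any array. The summed signal of 11 lymphocyte markers was 124.8 and 157.1 in WT mice against 109.2 and 96.02 in IKKb(EE)IEC mice. Gzma alone made up 76.6 and 108.2 of the WT sums and 67.4 and 56.6 of the IKKb(EE)IEC sums. Single markers went both ways, with 2 higher and 3 lower at an unadjusted p below 0.05 in limma. Of the 11, Klrb1c was called higher, but it was well above background on neither WT array and reached the test through IKKb(EE)IEC alone. Of 7 markers of type 3 innate lymphoid cells, which depend on AhR, 6 were not well above background on any array, among them Il22, Il23r and Ncr1. The part of these cells in the rise of Ahr and Cyp1a1 was not tested.

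Markers of other organs differed between arrays in part. Pancreas markers summed to 440.3 and 185.7 in WT mice against 16.6 and 21.3 in IKKb(EE)IEC mice, but Clps alone made up 438.8 and 184.0 of the WT sums, while Cpa1 and Pnlip were not well above background on any array. In contrast 4 of 5 liver markers were well above background on WT replicate 2 alone. B and plasma cell markers summed to 20.9 and 23.1 against 37.8 and 31.5, fibroblast and muscle markers to 19.7 and 17.9 against 18.9 and 17.1, and endothelial markers to 2.75 and 3.38 against 2.29 and 2.31. Their part in the results was not tested. Ikbkb, the gene of the activated kinase, missed the threshold at 0.83 ± 0.21 (adjusted p by limma = 0.055), and it is not known here if that probe reads the active form. The 4 arrays lay on 1 slide and were scanned together, WT at positions 1 and 2 and IKKb(EE)IEC at positions 3 and 4, so position and genotype cannot be told apart. Spots well above background made up 34.3% to 36.0% in WT and 40.8% to 41.1% in IKKb(EE)IEC, and arrays of 1 genotype correlated at 0.978 and 0.994 across genes, which are not independent replicates. Over all genes 997 rose and 896 fell, a split that became 1260 and 735 with a median shift and 1416 and 549 with the added normexp correction.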

How the data were processed

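Total RNA from the isolated cells was labelled with Cy3 and hybridised to 1-colour arrays of Agilent design 014868, per the labels' protocols and the file headers. Per the file headers, Agilent Feature Extraction 9.5.3.1 made the deposited intensities of the spots, background-subtracted and detrended, with a substituted value for dim spots and no normalization between arrays. The deposited spot flags, another column type, mark controls, outliers, saturation and spots well above background. The authors' value table holds linear intensities of 40913 probes with column medians of 111.5 to 112.0, normalized between arrays by an unstated method. They correlate with the spot means at a Spearman rho of 0.996 to 0.997 over probes.

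From these, the log2 processed signal was set relative to each array's 75th percentile (60.3, 66.1, 94.6 and 107.8). Control spots and outliers (1 to 7 per array) were left out, and a probe's repeated spots entered as their mean. A probe was well above background on an array where at least 50% of its spots were, and entered the test with at least 2 such arrays. A gene was read from its brightest probe. Names were updated to GRCm38.p6 for 24375 probes by RefSeq accession and for 4647 through another probe of the same name, while 12152 stayed as named by the array. Probe positions refer to mm8, the build of the array files, and exons were not assigned.

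Genotypes were compared with limma 3.58.1 in R 4.3.3 (lmFit and eBayes, two-sided), with all 4 arrays in 1 fit whose prior had 3.51 degrees of freedom. The fit was tested on simulated data, with 40 genes for each change. Changes of 1 and -1 log2 units were recovered for 0% and 2.5% of them, changes of 2 and -2 for 82.5% each. A gene that did not pass may thus have changed by 1 log2 unit. Arrays give no counts, so their number limits the precision. The text names all members, up to 3 passing genes of each list with the largest change or, where none passed, 2 with the smallest p, and the 3 nearest genes by pattern for Ahr and Cyp1a1. Genes named beyond this rule were chosen after their values were seen. Members and lists were chosen with earlier results of these data known. Some items are not reported here. Alternatives covered normalization, background, filter, probe choice, replicate block and leaving out each array.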

Additional observations from a re-analysis of the deposited data

How the results depend on the processing

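Limits are the 2 arrays per genotype and, for Ahr, Arnt and Ahrr, the low signal over background. A median shift, quantile normalization, the authors' value table, the mean of all probes, every probe on its own and the added normexp correction each kept both rises, of Ahr and of Cyp1a1, with 0 members lower. The median shift fit used 1 spread for all genes, so its p values are not set beside the others. The median of all genes was -0.12, and -0.01 with the added normexp correction.

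With the planned normexp corrections (saddle-point and maximum likelihood), 0 of all genes passed in limma. In these fits 0 members were higher, Ahr had changes of 0.85 and 0.85 (adjusted p = 1.00 and 1.00) and Cyp1a1 of 2.36 and 2.35 (adjusted p = 1.00 and 1.00), and 0 list genes rose or fell. Up to 4 spots per array had a mean below their local background. A normexp correction without those spots, chosen after seeing the data, gave 2 members higher, with Arnt at -0.0351 and Tiparp at 0.0915, both opposite in sign to the reported value and neither past the threshold. With a filter for all 4 arrays Ahr and Arnt had no value, 1 member was higher of 3 tested and 5 list genes were lower. Without a filter, 1 member was higher, Ahr stood at 2.56 (adjusted p = 0.0606), and 2 list genes rose and 1 fell.

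Leaving out 1 array at a time gave 0 to 2 members higher, and changes of 1.89 to 3.22 for Ahr, 2.10 to 3.09 for Cyp1a1, -0.0795 to 0.19 for Arnt, -0.39 to 0.13 for Tiparp and -0.26 to 0.52 for Nqo1, so that the last 3 changed sign without passing. List genes that rose numbered 0 to 19, and those that fell 0 to 10. A lone array was assumed to vary like those of the other genotype. Of all genes, 2633 rose and 3542 fell when WT replicate 1 was left out, 1914 and 2267 when WT replicate 2 was, 165 and 82 when IKKb(EE)IEC replicate 1 was and 225 and 104 when its replicate 2 was. Without a filter 501 rose and 342 fell. The cause of these changes was not tested.

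The titles number the arrays 1 and 2 in both genotypes, and deviations of same-numbered arrays correlated at 0.108 across genes, with only 2 pairs, so the numbers are not taken as a pairing. With the replicate block, 2 members were higher and 0 lower, Ahr and Cyp1a1 had adjusted p values of 0.00846 and 0.00589 in limma, 6 list genes rose and 2 fell, and 913 and 587 of all genes passed as higher and lower. Of 240 counts of single lists under an alternative, 178 stayed within 1.5 times the reported count. Many of the reported counts were 0, and those that stayed 0 are among the 178, so this number is no measure of stability.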
